A study of Mus musculus with 6 samples.

Results

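The genes described here are the chemokines and chemokine receptors of the late fetal mouse lung. They are rows of the deposited table, chosen by symbol. Each symbol has the systematic form of a CC, CXC, CX3C or C chemokine, of one of their signalling receptors or of an atypical receptor. The selection left out 2 such rows. This gave 59 of 55359 rows, namely 13 CXC ligands, 23 CC ligands, 2 ligands of the CX3C and C classes, 17 signalling receptors and 4 atypical receptors. Chemokines under other symbols are not members, and Pf4 and Ppbp are counted below with the chemokine-like ligands. The study sequenced poly(A) RNA of whole C57 lungs at E18.5, with 3 libraries of the genotype label Prmt5 knockdown and 3 of the label WT. Its design text describes the lungs as knockout for Prmt5 in the mesenchyme through Dermo1, another name of Twist2. The growth protocol, the same for all 6 samples and so for the wild types too, describes the pregnant dams as carrying a Prmt5 knockdown in lung mesenchyme and as housed germ-free. Which alleles or Cre driver the embryos carried, whether the wild types carried any of them, and whether they were littermates is not given in the sources used here, so the p-values refer to the spread among these 6 libraries, part of which may be technical.

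Chemokines are small secreted or membrane-bound proteins that steer migrating cells along gradients held on cell surfaces and matrix. They act through G protein-coupled receptors, while the atypical receptors bind chemokines without activating G proteins and mostly clear them. Homeostatic chemokines such as Cxcl12 guide vessels, progenitors and resident leukocytes in developing organs, and inflammatory ones are induced by cytokines to recruit neutrophils and monocytes.

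Total counts were 14390202 to 19262837 in knockdown-labelled and 14383415 to 16358478 in wild type libraries. Prmt5 itself stood at 39.4, 47.6 and 46.7 CPM (read counts scaled to a common library total with TMM factors) in knockdown-labelled lungs and at 46.6, 47.1 and 48.1 CPM in wild type lungs, which gave -0.08 on the log2 scale (interval of 95% confidence -0.29 to 0.13, edgeR adjusted p = 0.682). The groups are therefore named by their labels. Counts of Xist and Ddx3y marked 2 knockdown-labelled and 1 wild type embryo as male. Defining lung markers were present throughout, the alveolar type 2 markers together at 15640 to 19580 CPM in knockdown-labelled and 15000 to 19030 CPM in wild type lungs.

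Markers of neighbouring organs were also present, at levels that differed widely between libraries. Whether their RNA came from tissue of those organs or from cells within the lung was not tested. Thymus markers, a list of 8 genes chosen after their values were seen, summed to 118, 215 and 7.81 CPM in knockdown-labelled replicates 1 to 3 and to 6.22, 5.42 and 136 CPM in wild type replicates 1 to 3. T cell markers, 10 genes with none at 0, summed to 117, 202 and 9.96 CPM in the same knockdown-labelled libraries and to 7.64, 4.64 and 150.1 CPM in the wild type ones. Salivary gland markers, 8 genes also chosen after their values were seen, summed to 9191 CPM in knockdown-labelled replicate 3, against 0.677 and 3.53 CPM in knockdown-labelled replicates 1 and 2 and 0.141 to 0.958 CPM in wild type lungs. Thyroid markers, 5 genes likewise chosen after their values were seen, summed to 1065 CPM in knockdown-labelled replicate 3 and to 352.1 and 476.5 CPM in wild type replicates 1 and 3, against 2.25 to 4.87 CPM in the other 3 libraries. Heart muscle markers summed to 3715 to 12410 CPM in knockdown-labelled and 529 to 3095 CPM in wild type lungs.

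Promoter windows are printed for the 5 genes on which the account turns, namely the most abundant chemokine Cxcl15, the ligand Cxcl12 with its receptors Cxcr4 and Ackr3, and Cxcl13, which had the smallest p among the members. Each window runs from 250 bases before to 50 after a transcript start, 5′ to 3′ on the gene's strand, from RefSeq on GRCm38.p6. The windows are chr5:90794284-90794583 (plus strand) for Cxcl15, chr6:117168285-117168584 (plus) for Cxcl12, chr1:128592250-128592549 (minus) for Cxcr4, chr1:90203730-90204029 (plus) for Ackr3 and chr5:95956689-95956988 (plus) for Cxcl13. Capitals mark matches, on either strand, to a TATA box (TATAAA), a GC box (GGGCGG), an NF-kB motif (GGG, NN and TTTCC in a row) or an interferon-stimulated response element, ISRE (TTTC, NN and TTTC in a row).
Cxcl15: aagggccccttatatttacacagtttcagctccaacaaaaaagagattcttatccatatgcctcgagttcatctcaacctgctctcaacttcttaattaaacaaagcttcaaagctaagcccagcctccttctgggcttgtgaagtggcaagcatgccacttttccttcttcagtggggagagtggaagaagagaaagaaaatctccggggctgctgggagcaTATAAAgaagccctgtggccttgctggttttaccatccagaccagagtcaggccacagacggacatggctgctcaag
Cxcl12: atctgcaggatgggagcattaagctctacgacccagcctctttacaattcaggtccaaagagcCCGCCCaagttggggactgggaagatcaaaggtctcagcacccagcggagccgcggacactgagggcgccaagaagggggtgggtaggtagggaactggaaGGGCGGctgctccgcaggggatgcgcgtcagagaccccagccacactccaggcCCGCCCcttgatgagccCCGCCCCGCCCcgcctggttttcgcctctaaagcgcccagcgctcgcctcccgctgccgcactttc
Cxcr4: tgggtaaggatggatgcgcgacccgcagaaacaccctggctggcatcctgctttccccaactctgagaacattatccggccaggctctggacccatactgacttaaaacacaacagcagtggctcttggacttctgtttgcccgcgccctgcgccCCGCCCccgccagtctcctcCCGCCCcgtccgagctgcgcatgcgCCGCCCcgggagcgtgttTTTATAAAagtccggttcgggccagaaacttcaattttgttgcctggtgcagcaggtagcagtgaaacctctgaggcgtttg
Ackr3: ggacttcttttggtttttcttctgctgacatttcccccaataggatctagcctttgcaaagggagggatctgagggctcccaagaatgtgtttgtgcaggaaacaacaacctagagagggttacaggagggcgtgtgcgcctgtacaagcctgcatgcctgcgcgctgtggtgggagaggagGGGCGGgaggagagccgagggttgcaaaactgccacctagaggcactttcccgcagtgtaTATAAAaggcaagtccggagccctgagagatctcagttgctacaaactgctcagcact
Cxcl13: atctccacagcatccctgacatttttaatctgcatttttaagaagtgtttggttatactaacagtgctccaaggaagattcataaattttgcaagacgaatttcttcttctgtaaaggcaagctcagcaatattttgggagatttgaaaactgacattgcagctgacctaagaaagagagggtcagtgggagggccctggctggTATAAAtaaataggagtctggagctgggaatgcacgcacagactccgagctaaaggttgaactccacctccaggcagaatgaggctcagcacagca
The Cxcl15 and Cxcl13 windows held a TATA box and no GC box match. The Cxcl12 window held 5 GC box matches, of which 2 overlap by a base, and no TATA box match, while the Cxcr4 and Ackr3 windows held both. In the Cxcr4 window the TATA box matches of the forward and reverse strands overlap.

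Motifs in the promoter windows are given beside their share of all genes. RefSeq windows matched 44 of the 59 members. Of these 6 (13.6%) held an NF-kB match in any of their windows, as did 1.89% of all 27025 genes with a window. They were the neutrophil attractants Cxcl1, Cxcl2 and Cxcl3, the CC ligands Ccl9 and Ccl20, and the eosinophil receptor Ccr3. An ISRE match was present in 3 members (6.82%), Cxcl10, Cxcl14 and Ccl19, and in 3.99% of all genes. TATA box matches were in 14 members (31.8%) and 15.7% of all genes, GC box matches in 10 members (22.7%) and 38.2% of all genes. A match describes letters and is not evidence of binding.

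The chemokine RNA of the late fetal lung was dominated by a single gene. Cxcl15 (lungkine, ENSMUSG00000029375), a neutrophil attractant made by the lung epithelium of mice, had a mean of 573 FPKM (the deposited read level scaled by exonic length and library total, used here to compare genes). It made up 81.9% to 82.9% of the members' summed FPKM in knockdown-labelled and 82.8% to 85.6% in wild type libraries. The next in order were Cxcl12 at 22.1, Cxcr4 at 15.9, Ackr3 at 12.5 and Ackr2 at 9.18 FPKM. In all 19 members had a mean of at least 1 FPKM and 40 lay below, of which 4 had no count in any library.

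**Figure D1:**
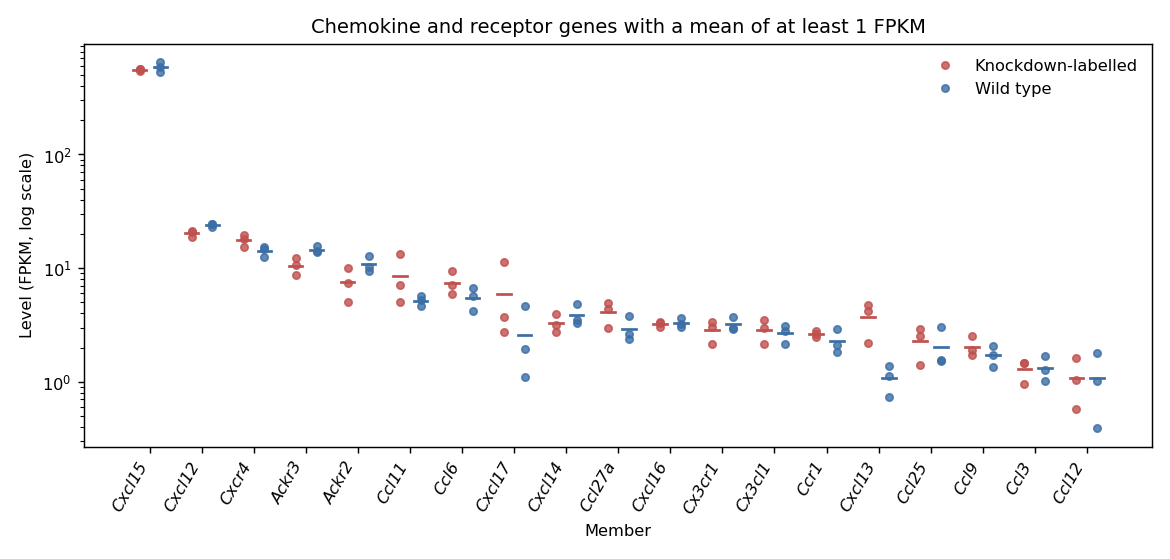
FPKM per library on a log axis for the 19 members with a mean of at least 1 FPKM, with points for the 3 knockdown-labelled (left of each pair) and 3 wild type libraries and bars at the group means. Cxcl15, with a mean of 573 FPKM, stands above all others, the next being Cxcl12 at 22.1 FPKM.

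None of the members passed the comparison of the groups, which asked whether chemokine genes differ in lungs labelled for loss of Prmt5 in the mesenchyme. Of the 59 members 26 had enough counts to be tested, and 0 of them passed the threshold of 0.05 after Benjamini-Hochberg adjustment of edgeR quasi-likelihood p-values over all 17728 genes tested, where 6 genes (0.0338%) did. The smallest edgeR adjusted p among the members was 0.135. At an unadjusted p under 0.05 there were 7 members, against 17.0% of all genes tested. Of the 7, 5 had higher and 2 lower levels in the knockdown-labelled lungs, where 8.48% and 8.52% of all genes did. Levels of the groups did not overlap for 4 members that were higher and 2 that were lower, against 10.8% and 12.4% of all genes. DESeq2 called 1 member, Cxcl13, higher (adjusted p = 0.00488), beside 2.15% of all genes called higher and 2.63% lower. Of the 26 tested members 18 (69.2%) had positive log2 fold changes, compared with 52.9% of all genes tested. Their median log2 fold change was 0.24, that of all genes 0.01. The 26 include members that passed the count filter through the libraries where they were high, so these shares are descriptions.

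**Figure D2:**
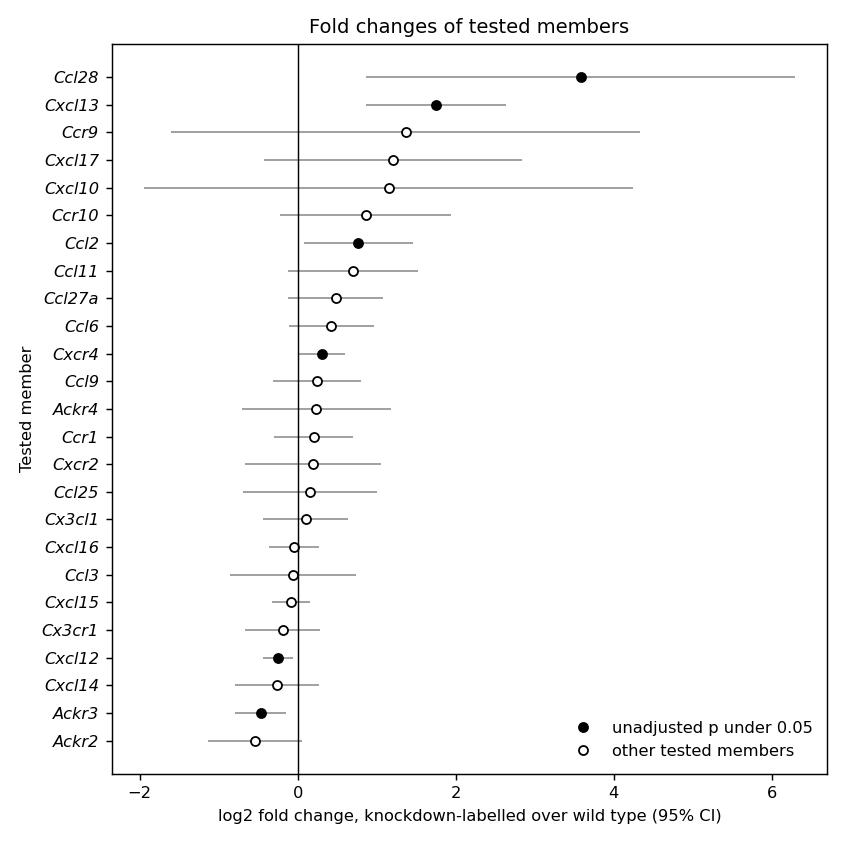
log2 fold change, knockdown-labelled over wild type, with its 95% confidence interval for 25 of the 26 tested members, from edgeR. Filled points have an unadjusted p under 0.05 (6 of those shown), none passed after adjustment, and the widest intervals are those of Cxcl10, Ccr9 and Ccl28.

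Among the CXC ligands, Cxcl15 (chromosome 5, 90942393 to 90950926 on the plus strand in the table's coordinates, whose build is not named) was level between the groups within their spread. It stood at 1200, 1213 and 1141 CPM in knockdown-labelled and at 1252, 1393 and 1120 CPM in wild type lungs, with overlapping groups. The log2 ratio was -0.08 (95% confidence interval -0.32 to 0.16, edgeR adjusted p = 0.73). The alveolar type 2 markers, epithelial genes, also overlapped between the groups, with a median log2 fold change of 0.0003 over 9 tested genes. Alveolar type 1 markers did not overlap, at 3273 to 4176 CPM in knockdown-labelled and 5028 to 5686 CPM in wild type lungs. Their median log2 fold change was -0.45 over 8 tested genes. An unadjusted edgeR p under 0.05 was reached by 6 lower and 0 higher, beside 8.52% and 8.48% of all genes. Club and airway secretory markers overlapped, at 2454 to 3311 CPM in knockdown-labelled and 2706 to 2950 CPM in wild type lungs.

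Cxcl12 (ENSMUSG00000061353, chromosome 6, 117145496 to 117158328, plus strand), the stromal ligand that retains and guides cells bearing Cxcr4, had 173, 172 and 151 CPM in knockdown-labelled lungs and 202, 202 and 186 CPM in wild type lungs. Every knockdown-labelled value lay below every wild type value. The log2 fold change was -0.25 with an SE of 0.08 and did not pass (edgeR adjusted p = 0.212). Without each library in turn it ranged from -0.29 to -0.19, with edgeR adjusted p-values of 0.208 to 0.564.

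Both receptors of Cxcl12 were among the most abundant members after it. Cxcr4 (ENSMUSG00000045382, chromosome 1, 128515936 to 128520030, minus strand), the signalling receptor, stood at 32.4, 36.0 and 27.3 CPM in knockdown-labelled and at 27.9, 23.2 and 26.3 CPM in wild type lungs. The groups overlapped, and the log2 fold change of 0.30 (SE 0.12) did not pass (edgeR adjusted p = 0.282). With T cell level as a term in the model it was 0.21, and with heart muscle level 0.17. With macrophage level it was 0.36 and with embryo sex 0.32. Ackr3 (ENSMUSG00000044337, chromosome 1, 90131702 to 90144473, plus strand), the atypical receptor that takes up and degrades Cxcl12, stood at 28.8, 41.8 and 34.97 CPM in knockdown-labelled lungs and at 47.4, 46.7 and 51.98 CPM in wild type lungs. All knockdown-labelled values were below all wild type values. It averaged 35.2 ± 6.51 CPM in knockdown-labelled and 48.7 ± 2.88 CPM in wild type lungs (SD, n = 3 each). The log2 fold change was -0.47 (SE 0.14, edgeR adjusted p = 0.189). With the mean level of the macrophage list as a term in the model that value was 0.01. It was -0.76 with heart muscle level, -0.52 with T cell level and -0.41 with embryo sex as the term. The part of macrophages in the Ackr3 value was not tested. In RNA of a whole organ, fewer cells of a type and less RNA per cell cannot be told apart. Endothelial markers, of a cell type in which both receptors are known to be expressed, were lower alongside Cxcl12 and Ackr3, at 1953 to 2462 CPM in knockdown-labelled and 2784 to 3146 CPM in wild type lungs when summed over 10 genes with none at 0. Mesenchymal markers, of the stroma that makes Cxcl12, overlapped at 5539 to 7176 CPM in knockdown-labelled and 5316 to 6232 CPM in wild type lungs over 11 genes with none at 0. Of these 11, an unadjusted p under 0.05 was reached by 2 that were higher and 5 that were lower. DESeq2 called 4 lower and 0 higher, and the median log2 fold change was -0.20. The part of these cell types in the values was not tested.

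**Figure D3:**
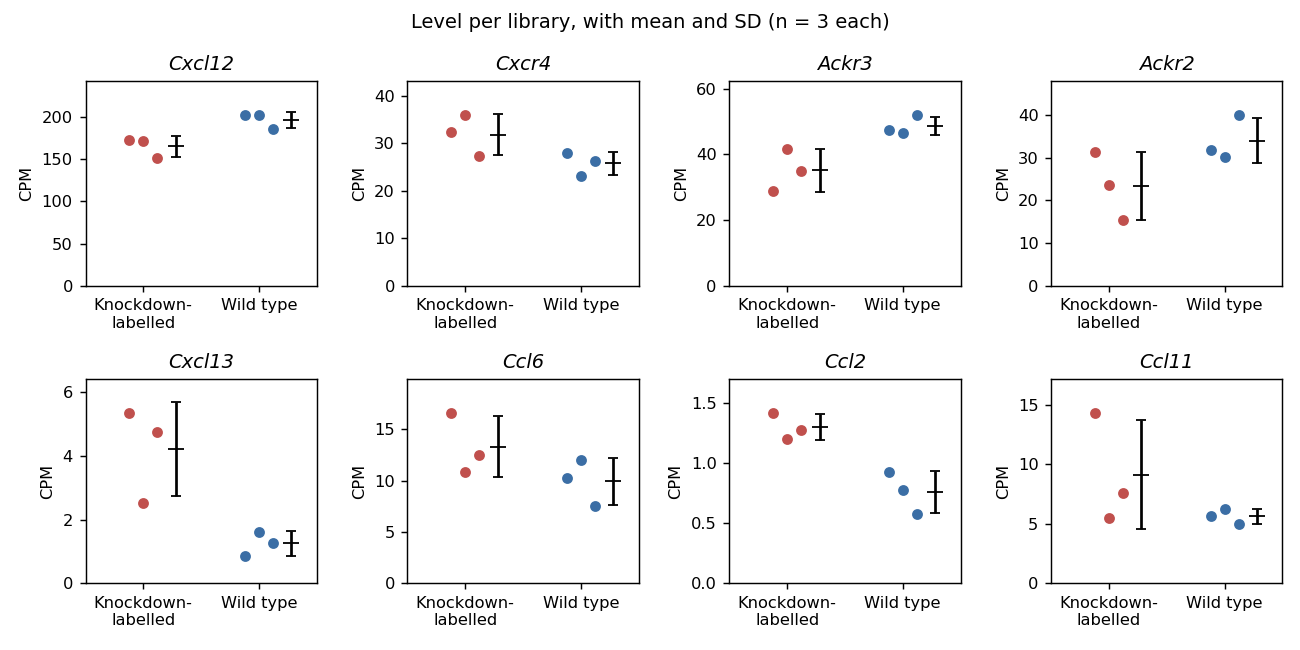
CPM per library on axes that start at 0, with points for the 3 knockdown-labelled (left) and 3 wild type libraries and the mean with its SD beside them, for the Cxcl12 axis, Ackr2, Cxcl13, Ccl6, Ccl2 and Ccl11. The groups do not overlap for Cxcl12, Ackr3, Cxcl13 and Ccl2, and none of the 8 genes passed the edgeR test.

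Cxcl13 (ENSMUSG00000023078, chromosome 5, 96104810 to 96108927, plus strand), which draws B cells into follicles through Cxcr5, showed the smallest p of the members. It had 87, 36 and 93 counts in knockdown-labelled and 14, 23 and 20 counts in wild type libraries, which were 5.35, 2.54 and 4.75 CPM in knockdown-labelled and 0.862, 1.62 and 1.28 CPM in wild type lungs. Each knockdown-labelled library was above each wild type one. The log2 fold change was 1.75 (SE 0.37), with an unadjusted p of 0.00224 and an edgeR adjusted p of 0.135. Leaving out a library gave 1.54 to 2.01 with edgeR adjusted p-values of 0.0902 to 0.517. Its receptor Cxcr5 had 10, 10 and 3 counts in knockdown-labelled and 3, 1 and 2 in wild type libraries, too few to test. B cell markers, 8 genes of which 6 had a mean under 1 CPM, summed to 10.5, 12.3 and 11.1 CPM in knockdown-labelled and 10.1, 6.54 and 7.98 CPM in wild type lungs, and their part in the Cxcl13 value was not tested.

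The other abundant CXC ligands did not separate the groups. Cxcl14, a constitutive chemokine of epithelia and stroma, stood at 7.14, 5.08 and 5.62 CPM in knockdown-labelled and 6.096, 8.94 and 6.39 CPM in wild type lungs. Cxcl16, a transmembrane ligand of Cxcr6, was even across libraries, at 9.11, 10.2 and 9.70 CPM in knockdown-labelled and 9.73, 9.22 and 10.98 CPM in wild type lungs (log2 fold change -0.04, 95% confidence interval -0.36 to 0.27). Cxcr6 itself had 7, 11 and 6 counts in knockdown-labelled and 2, 0 and 4 in wild type libraries. Cxcl17, a chemokine of mucosal surfaces, had 2.83, 2.12 and 8.53 CPM in knockdown-labelled lungs and 1.48, 3.59 and 0.83 CPM in wild type lungs. Its highest value was in the library rich in salivary gland markers, and without that library its log2 fold change was 0.34, compared with 1.21 with all libraries (edgeR adjusted p = 0.843 and 0.425).

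Among the members, the neutrophil attractants other than Cxcl15 were near the limit of detection. Cxcl1, Cxcl2, Cxcl3 and Cxcl5 had totals of 30, 27, 19 and 3 counts over all 6 libraries. Their receptor Cxcr2 stood at 3.14, 2.47 and 1.43 CPM in knockdown-labelled and 2.59, 1.48 and 2.04 CPM in wild type lungs, and Cxcr1 had 0 counts in every library, where 3 counts would be 0.153 to 0.212 CPM. Neutrophil markers, 9 genes with none at 0, summed to 50.5 to 66.6 CPM in knockdown-labelled and 31.8 to 54.9 CPM in wild type lungs.

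None of the CC ligands passed. Of 23 CC ligands 8 were tested, 7 of them with positive log2 fold changes, where 52.9% of all genes tested were positive, and with a median of 0.45. With macrophage level as a term Ccl2 was at 0.14, against 1.25 with heart muscle level, 0.68 with embryo sex and 0.87 with T cell level. Of the 8 CC ligands 4 were positive and 4 negative with macrophage level, and 7 positive and 1 negative with heart muscle level or embryo sex. With T cell level 6 of the CC ligands were positive and 2 negative. Their summed level over all 23 was 38.7, 26.6 and 30.95 FPKM in knockdown-labelled libraries and 21.99, 23.1 and 22.3 FPKM in wild type libraries, so the sums did not overlap. Ccl11 (eotaxin), which recruits eosinophils through Ccr3, supplied 13.4 FPKM of the first of these sums, and Ccl28 4.23 FPKM of the third. Ccl11 stood at 14.3, 5.499 and 7.61 CPM in knockdown-labelled lungs and at 5.67, 6.26 and 4.98 CPM in wild type lungs. The groups overlapped, with a single high library (log2 fold change 0.70, SE 0.35, edgeR adjusted p = 0.364), and without each library in turn the value ranged from 0.23 to 0.96. Without knockdown-labelled replicate 1, the high library, it was the lowest of that range. Ccr3 had 0, 2 and 1 counts in knockdown-labelled and 4, 0 and 2 in wild type libraries.

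Ccl6 and Ccl9, neighbouring genes of the mouse myeloid lineage whose products bind Ccr1, did not separate the groups. Ccl6 stood at 16.6, 10.9 and 12.5 CPM in knockdown-labelled and 10.2, 12.03 and 7.54 CPM in wild type lungs (log2 fold change 0.42, SE 0.23, edgeR adjusted p = 0.397). Ccl9 stood at 7.57, 5.29 and 5.72 CPM in knockdown-labelled and 6.34, 5.28 and 4.09 CPM in wild type lungs. Ccr1 stood at 6.89, 7.62 and 7.81 CPM in knockdown-labelled and 5.97, 8.30 and 5.17 CPM in wild type lungs. Groups overlapped for all 3 genes. Macrophage markers, 13 genes with none at 0, summed to 247 to 265 CPM in knockdown-labelled and 230.3 to 262 CPM in wild type lungs. Of the 12 tested 10 had positive log2 fold changes, with a median of 0.23, and an unadjusted p under 0.05 was reached by 3 that were higher and 0 that were lower. DESeq2 called 1 of them higher, Fcgr1, with 3.57, 3.03 and 3.98 CPM in knockdown-labelled and 1.17, 0.844 and 0.639 CPM in wild type lungs. With macrophage level as a term the log2 fold changes were -0.54 for Ccl6, -0.61 for Ccl9 and -0.09 for Ccr1. For Ccl6 the value was 0.98 with heart muscle level, 0.57 with T cell level and 0.33 with embryo sex. The part of macrophages in these values was not tested.

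The monocyte attractants of the chromosome 11 cluster were low. Ccl2 had 1.42, 1.20 and 1.28 CPM in knockdown-labelled lungs and 0.924, 0.774 and 0.575 CPM in wild type lungs, from 9 to 25 counts a library. The groups did not overlap, and the log2 fold change of 0.77 (SE 0.29) did not pass (edgeR adjusted p = 0.261). Its neighbours Ccl7 and Ccl12 did not separate the groups. Ccl7 had 13, 7 and 1 counts in knockdown-labelled and 6, 8 and 5 in wild type libraries, and Ccl12 had 14, 8 and 6 in knockdown-labelled and 9, 3 and 15 in wild type libraries. Monocyte markers, 6 genes of which Fn1 is also made by fibroblasts, summed to 3475 to 4432 CPM in knockdown-labelled and 4939 to 6035 CPM in wild type lungs, of which Fn1 alone made up 3389 to 4359 CPM in knockdown-labelled lungs. In wild type lungs Fn1 made up 4862 to 5959 CPM, so the sums mainly follow that gene. Its log2 fold change was -0.45 (edgeR adjusted p = 0.189), and DESeq2 called it lower (adjusted p = 0.00922). By sign, 4 of the 6 markers were higher in knockdown-labelled lungs and 2, Fn1 among them, were lower. The list median was 0.09. The part of monocytes in the Ccl2 value was not tested.

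Ccl3, Ccl4 and Ccl5 attract macrophages and T cells. Ccl3 stood at 1.11, 1.13 and 0.715 CPM in knockdown-labelled and 1.29, 0.985 and 0.766 CPM in wild type lungs, with overlapping groups (log2 fold change -0.06, 95% confidence interval -0.86 to 0.74). Ccl4 had 14 and Ccl5 29 counts over all libraries, of which Ccl5 had 10, 6 and 5 in knockdown-labelled and 2, 4 and 2 in wild type libraries.

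Ccl28 and Ccl27a are the ligands of Ccr10 in mucosa and skin. Ccl28 (ENSMUSG00000074715, chromosome 13, 120085355 to 120115895, plus strand), abundant in salivary gland, had 16, 32 and 395 counts in knockdown-labelled and 10, 9 and 11 counts in wild type libraries. On the CPM scale these were 0.984, 2.26 and 20.2 in knockdown-labelled and 0.616, 0.633 and 0.702 in wild type lungs. The groups did not overlap, yet almost all of the difference lay in knockdown-labelled replicate 3, where the salivary gland markers summed to 9191 CPM. With all libraries the log2 fold change was 3.58 (SE 1.15, edgeR adjusted p = 0.211), and without that library 1.30 (edgeR adjusted p = 0.326). Ccl27a stood at 7.01, 10.4 and 11.6 CPM in knockdown-labelled and 5.67, 6.33 and 8.88 CPM in wild type lungs, with overlapping groups (log2 fold change 0.48, SE 0.25, edgeR adjusted p = 0.393). It overlaps Il11ra1 on the other strand and has a close copy, Ccl27b (3 counts in all), so its reads may not be its own. Ccr10 had 0.80, 1.48 and 1.89 CPM in knockdown-labelled and 0.739, 1.13 and 0.447 CPM in wild type lungs (log2 fold change 0.86, SE 0.46, edgeR adjusted p = 0.393). It overlaps Cntnap1 on the other strand.

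**Figure D4:**
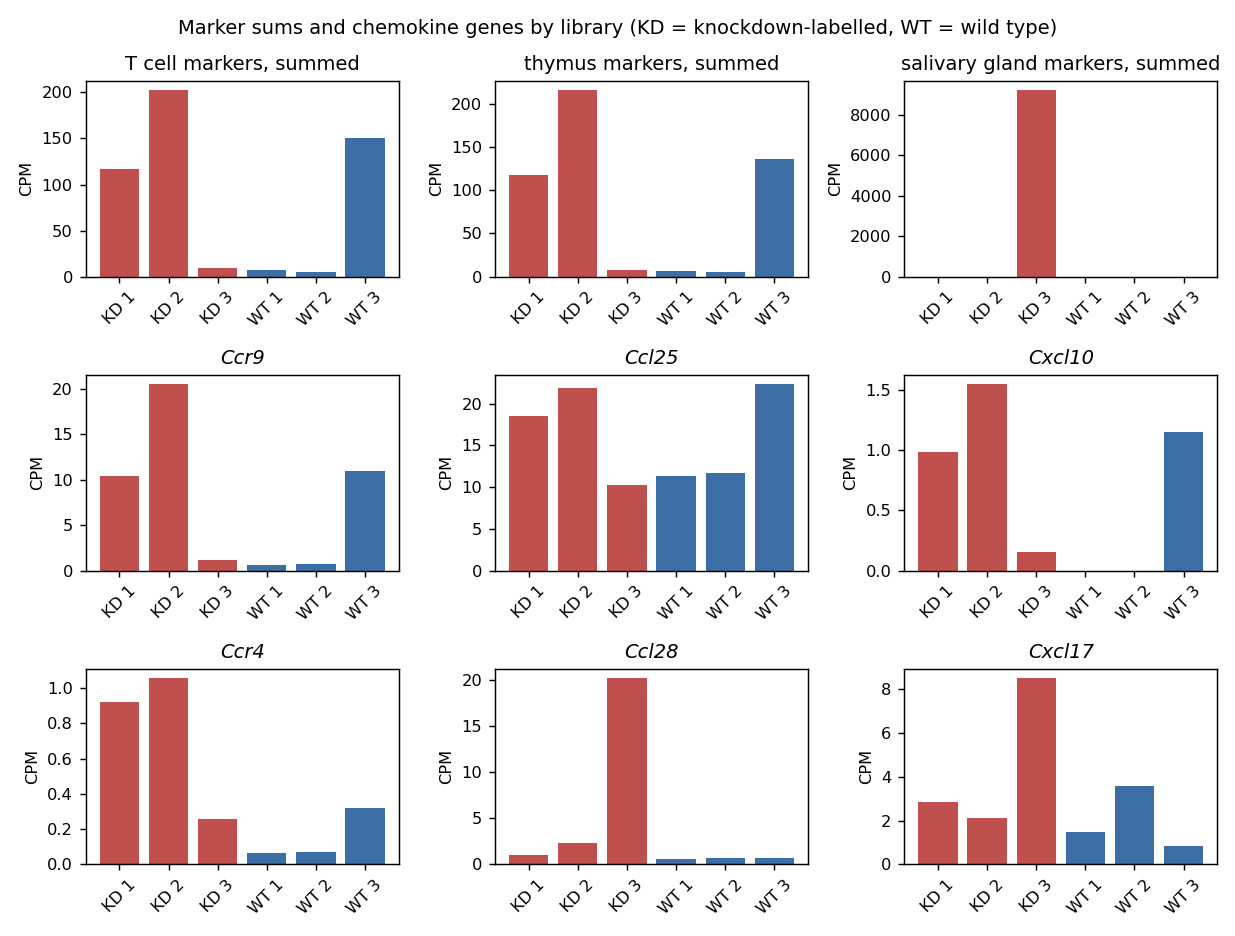
CPM per library, with KD for knockdown-labelled and WT for wild type, of summed T cell, thymus and salivary gland markers (top row) and of 6 members. Ccr9, Ccl25 and Cxcl10 are high in the same 3 libraries as the thymus markers, Ccr4 is highest in 2 of them, and Ccl28 and Cxcl17 are highest in knockdown-labelled replicate 3, where salivary gland markers are.

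Ccl25 and Ccr9, the ligand and receptor that guide thymocytes and gut lymphocytes, were high in the libraries that held thymus markers, in both groups. Ccr9 had 169, 291 and 22 counts in knockdown-labelled replicates 1 to 3 and 10, 11 and 171 counts in wild type replicates 1 to 3. Ccl25 had 18.52, 21.9 and 10.3 CPM in those knockdown-labelled lungs and 11.3, 11.7 and 22.4 CPM in those wild type lungs. The 3 libraries high in both genes were those with thymus markers at 118 to 215 CPM, and the other 3 had those markers at 5.42 to 7.81 CPM. Across the groups the log2 fold change was 1.37 for Ccr9 and 0.15 for Ccl25 (edgeR adjusted p = 0.633 and 0.875). With the T cell list as a term, a setting chosen after the data were seen, these were 0.28 and -0.23 (edgeR adjusted p = 0.741 and 0.486). With heart muscle level as a term they were -1.40 for Ccr9 and -0.76 for Ccl25, and with macrophage level 5.53 for Ccr9 and 1.00 for Ccl25. Without wild type replicate 3 the log2 fold change of Ccr9 was 3.93 (edgeR adjusted p = 0.218). Ccr9 overlaps Lztfl1 and Slc6a20a, and Ccl25 overlaps Elavl1, each on the other strand.

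The interferon-induced Cxcr3 ligands had few reads, in the same libraries. Cxcl10 had 16, 22 and 3 counts in knockdown-labelled and 0, 0 and 18 counts in wild type libraries. Cxcl11 had 3, 6 and 1 counts in knockdown-labelled and 0, 0 and 6 in wild type libraries, and Cxcl9 had 3, 5 and 0 in knockdown-labelled and 1, 0 and 2 in wild type libraries. Their receptor Cxcr3 had 1, 5 and 3 counts in knockdown-labelled and 1, 2 and 3 in wild type libraries. The dendritic cell and macrophage ligand Ccl22 had 19, 11 and 4 counts in knockdown-labelled and 1, 2 and 7 in wild type libraries. Its receptor Ccr4, found on T cells, had 15, 15 and 5 counts in knockdown-labelled and 1, 1 and 5 in wild type libraries. Cxcl10 and Cxcl11 overlap Art3 on the other strand.

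Cx3cl1 (fractalkine), a membrane-bound ligand of endothelium and epithelium, and its receptor Cx3cr1, found on monocytes and macrophages, were of like level at 2.77 and 3.03 FPKM. Cx3cl1 stood at 8.31, 11.9 and 13.6 CPM in knockdown-labelled and 10.96, 12.2 and 8.37 CPM in wild type lungs. Cx3cr1 stood at 9.54, 15.4 and 13.4 CPM in knockdown-labelled and 16.99, 13.7 and 13.03 CPM in wild type lungs. Groups overlapped for both, with log2 fold changes of 0.10 (95% confidence interval -0.44 to 0.64) and -0.19 (-0.67 to 0.29). In the table the Cx3cr1 model spans 9 other genes, among them Xirp1 and Csrnp1 on its own strand, so part of its reads may belong to them.

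The atypical receptors other than Ackr3 clear CC chemokines or carry them across endothelium. Ackr2, which degrades inflammatory CC chemokines and is known from lymphatic endothelium, stood at 31.3, 23.6 and 15.4 CPM in knockdown-labelled lungs and at 31.9, 30.1 and 39.98 CPM in wild type lungs. The groups overlapped in a narrow range, and the log2 fold change of -0.54 (SE 0.25) did not pass (edgeR adjusted p = 0.326). It was -0.31 without knockdown-labelled replicate 3 and -0.80 without knockdown-labelled replicate 1. Lymphatic endothelial markers, 7 genes with none at 0, summed to 343.8, 398 and 319.5 CPM in knockdown-labelled and 467, 456 and 428 CPM in wild type lungs, and their part in the Ackr2 value was not tested. Ackr4, the scavenger of Ccl19, Ccl21 and Ccl25, had 2.89, 2.89 and 1.74 CPM in knockdown-labelled and 1.48, 1.55 and 3.32 CPM in wild type lungs, high in the libraries that held thymus markers. Ackr4 overlaps Acad11 on the other strand. Ackr1, the receptor of venules and red cells, had 15, 8 and 30 counts in knockdown-labelled and 7, 6 and 8 in wild type libraries and was not tested.

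The remaining members were scarce or absent. Of 33 untested members 4 had no reads, namely Ccl1, Ccl21b, Ccl26 and Cxcr1, and 8 had 1 to 10 counts over all libraries, namely Ccl8, Ccl17, Ccl19, Ccl21d, Ccl27b, Ccr3, Cxcl5 and Xcr1. The Ccl21 and Ccl27 copies are near-identical genes whose counts are uncertain. The dendritic cell homing receptor Ccr7 had 11, 8 and 6 counts in knockdown-labelled and 2, 9 and 7 in wild type libraries. Totals over all libraries were 51 for the eotaxin Ccl24, 27 for Ccl20, 18 for its receptor Ccr6, 15 for Ccr8 and 12 for the lymphocyte-derived Xcl1. For comparison, NK and innate lymphoid markers summed to 52.1 to 83.6 CPM in knockdown-labelled and 43.04 to 67.6 CPM in wild type lungs, with Klra8 at 0. The genes lie in clusters, with 14 members on chromosome 11, 12 on chromosome 9 and 11 on chromosome 5. Cxcl15 and Cxcl13 are both on chromosome 5, where 3 of the 11 members were tested.

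Genes that act with chemokines did not pass the edgeR test either. Of 42 genes of receptor signalling, G protein subunits, kinases and arrestins, all were tested and 0 passed after adjustment. An unadjusted p under 0.05 was reached by 3 that were higher and 10 that were lower, where 8.48% and 8.52% of all genes did so, and the list median was -0.06. DESeq2 called 0 higher and 4 lower, against 2.15% and 2.63% of all genes, among them the 3 genes that follow. Elmo1, a subunit of a Rac activator, averaged 85.4 ± 7.55 CPM in knockdown-labelled and 113.6 ± 5.84 CPM in wild type lungs (SD, n = 3 each here and in the following sentences, edgeR adjusted p = 0.128). Arrb1, an arrestin that ends receptor signalling, averaged 235 ± 20.9 CPM in knockdown-labelled and 333 ± 36.4 CPM in wild type lungs (edgeR adjusted p = 0.136). The inhibitory G protein subunit Gnai1 averaged 44.6 ± 3.01 CPM in knockdown-labelled and 57.01 ± 3.38 CPM in wild type lungs (edgeR adjusted p = 0.146).

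Of 21 chemokine-like ligands and binding partners 0 passed, and an unadjusted p under 0.05 was reached by 1 that was higher and 5 that were lower, with a list median of -0.15, beside the same 8.48% and 8.52% of all genes. DESeq2 called 1 higher (Mif) and 2 lower (Ndst1 and Cmtm4), beside 2.15% and 2.63% of all genes. Mif, a cytokine that binds Cxcr4 and Cxcr2 besides Cd74, had the smallest p, at 51.4 ± 6.05 CPM in knockdown-labelled and 31.7 ± 0.313 CPM in wild type lungs. The log2 fold change was 0.70 (SE 0.10, edgeR adjusted p = 0.0805). Ndst1, which sulfates the heparan chains that hold chemokines, averaged 400.0 ± 40.1 CPM in knockdown-labelled and 543 ± 32.4 CPM in wild type lungs (edgeR adjusted p = 0.141). Ccrl2, a relative of the chemokine receptors that binds chemerin, averaged 12.1 ± 1.04 CPM in knockdown-labelled and 16.9 ± 0.425 CPM in wild type lungs (edgeR adjusted p = 0.145). Cmtm4 averaged 111.9 ± 6.08 CPM in knockdown-labelled and 139.8 ± 8.89 CPM in wild type lungs (edgeR adjusted p = 0.146). Of 28 inducers and NF-kB regulators 23 were tested and 0 passed with either tool, and an unadjusted p under 0.05 was reached by 2 that were higher and 1 that was lower, beside 8.48% and 8.52% of all genes. The receptor of interleukin-17, Il17ra, averaged 31.6 ± 4.21 CPM in knockdown-labelled and 23.76 ± 1.595 CPM in wild type lungs (edgeR adjusted p = 0.183). Tnfrsf1b, a receptor of tumour necrosis factor, averaged 14.1 ± 1.19 CPM in knockdown-labelled and 11.05 ± 1.34 CPM in wild type lungs (edgeR adjusted p = 0.271). The NF-kB cofactor Nfkbiz averaged 85.5 ± 11.3 CPM in knockdown-labelled and 102.8 ± 3.20 CPM in wild type lungs (edgeR adjusted p = 0.27). The interferon-regulated factor Irf1, next by p, averaged 38.1 ± 6.94 CPM in knockdown-labelled and 47.96 ± 5.06 CPM in wild type lungs, and its groups overlapped.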

How the data were processed

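Whole-lung poly(A) RNA-seq of 6 embryos was analysed. HISAT2 2.0.1, HTSeq 0.6.1 and cutadapt 1.9.1 are listed, without roles, per the submitters' processing notes. For build and strand setting, the sources used here give nothing. The authors deposited raw counts per gene and, per the file headers, FPKM values with each gene's exonic length, and FPKM recomputed from these differed by at most 0.005. Counts went into edgeR 4.0.16 (R 4.3.3) with filterByExpr, TMM factors, group as the sole term and adjustment over all 17728 genes tested (common biological coefficient of variation 21.8%). SEs are the log2 fold change over the square root of F. Alternatives used DESeq2 1.42.0, limma 3.58.1, other scalings, filters and covariates, and left out libraries. Per-library values are given for members with a mean FPKM of at least 1 or an unadjusted p under 0.05, and full statistics for the 12 smallest p-values, and the 4 smallest of each pathway list. Others named were chosen after their values were seen. The members and lists were chosen with earlier results of these data known. The fit was tested on simulated data. Counting floors cover counting error only. No number in a sample title is shared between samples. Of the genes that this rule names, 1 member and 1 signalling gene are counted in totals but not reported here.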

Additional observations from a re-analysis of the deposited data

How the results depend on the processing

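No paired analysis was possible because the numbers in the sample titles are not shared between the groups. Replicates 1 to 3 as named here follow the order of the samples within each group and imply no pairs. The count of 0 members called by edgeR (7 at an unadjusted p under 0.05) became 1 with DESeq2. A further setting left out the 3 libraries richest in T cell RNA. It sets knockdown-labelled replicate 3, the library rich in salivary gland markers, against wild type replicates 1 and 2. That setting assumes that the lone library varies like the others. Leaving out 1 library at a time gave 0 members each time (3 to 10 at an unadjusted p under 0.05). For all genes the 6 called became 81 without a filter, 11 at 1 CPM in 3 libraries, 829 with DESeq2, 25 with library weights, 0 with embryo sex, 1 with heart muscle level, 90 with macrophage level, 1 with T cell level, 2069 without the 3 libraries, and 0 to 17 with 1 library left out. The members' median log2 fold change of 0.24 was 0.20 to 0.38 with 1 library left out, 0.32 with embryo sex, 0.14 with macrophage level and 0.14 without the 3 libraries. With macrophage level as a term 8 of the 26 tested members changed sign. Among the 12 with the smallest p-values these were Ackr3 (0.0122), Ccl11 (-0.64) and Ccl6 (-0.54), and the cause was not tested. Heart muscle level changed the sign of 6 and T cell level of 3 of the 26. T cell level and the 3 libraries were chosen after seeing the data. The other alternatives left these calls and signs as they were for the 12 members with the smallest p-values, except that Cxcl13 passed with DESeq2 and that Cxcl13, Ccl28, Cxcl12, Ackr2 and Ccl27a passed without the 3 libraries. Ccl28 was not tested at 1 CPM in 3 libraries. Without a filter on low counts 13 members, against 7, had an unadjusted p under 0.05. Members with few counts are described by their counts, which limit the precision.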
